A study of Mus musculus with 8 samples.

Results

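The genes of the spindle, of anaphase and of cytokinesis were followed in neural stem cells (NSCs), without irradiation (non-irr) and 7 days after X-ray irradiation (irr). The set was a list of 44 genes, given by name, and each gene was read by the probe set of its symbol with the highest mean over all arrays. All 44 were found among 18193 genes with at least 1 such probe set on Affymetrix mouse genome arrays. All 44 also passed the intensity filter (over 100 on at least 1 array), as did 11364 genes in all, and 43 of them exceeded it in both groups. The exception is Cep152. The members were 5 mitotic kinases or their cofactor, 10 spindle proteins, 3 genes of the Ran system, 4 of centriole duplication and 6 of cytokinesis. The other 16 belong to the anaphase-promoting complex (APC/C) or act around it. Of these, 9 are its subunits, and 7 are its activators, ubiquitin-conjugating enzymes, inhibitor, the substrate securin (Pttg1) and separase (Espl1).

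The NSCs had been derived in culture from murine embryonic stem (ES) cells and were grown in N2 medium to which EGF and FGF2 were added. Total RNA was taken from 4 non-irr cultures and from 4 cultures irradiated with 10 Gy and taken at day 7, with 1 array each. The strain of the ES cells and the day on which the non-irr cultures were taken are not given in the labels. Values are log2 expression after robust multi-array averaging (RMA), and a change is the irr mean minus the non-irr mean with its standard error (SE) from limma, with n = 4 arrays per group.

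Cells build a bipolar spindle when they enter mitosis. Polo-like and Aurora kinases drive this step, the Ran system frees spindle factors near the chromosomes, and each centrosome carries centrioles that were copied in the preceding interphase. Anaphase starts when APC/C, a ubiquitin ligase of many subunits, is switched on by Cdc20 and marks securin and cyclin B for destruction, which frees separase to cut cohesin. APC/C is then kept active by Fzr1 (Cdh1) into the next G1 phase, where it also holds non-dividing cells, including neurons, out of the cycle. A central spindle, an actomyosin ring and the midbody finally split the cell. Many genes of mitosis are transcribed in G2 under a promoter element named CHR (cell cycle genes homology region), bound by the DREAM and MYB-FOXM1 complexes, often beside CCAAT boxes, which bind NF-Y.

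Promoters of the members show how they differ in these elements. RefSeq promoters (GRCm38.p6), which run from 250 bases before to 50 after the start of the transcript, were at hand for 40 of the 44 genes. The letters TTTGAA or TTCGAA (CHR) on either strand were in the promoters of 22 of 32 members that are not APC/C subunits (68.8%) and of 1 of 8 subunits (12.5%), against 21.7% of 27025 genes with a promoter in that table. CCAAT on either strand was in 21 of the 32 (65.6%), in 3 of the 8 (37.5%) and in 41.1% of all genes. Both were in 17 of the 32 (53.1%), in 0 of the 8 and in 8.61% of all genes. A match is neither a bound site nor a cause.

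The windows printed here run from 120 bases before to 30 after the start, 5′ to 3′ on the strand of the gene, with CHR and CCAAT letters of either strand in capitals. The first 7 are members that fell at least 2-fold and hold both motifs, chosen as examples after the matches were seen.
Cdc20, chr4:118437314-118437463, minus strand: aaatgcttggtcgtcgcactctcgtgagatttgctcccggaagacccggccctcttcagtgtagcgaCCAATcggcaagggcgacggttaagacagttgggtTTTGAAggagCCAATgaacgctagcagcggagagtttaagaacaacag
Ube2c, chr2:164769809-164769958, plus strand: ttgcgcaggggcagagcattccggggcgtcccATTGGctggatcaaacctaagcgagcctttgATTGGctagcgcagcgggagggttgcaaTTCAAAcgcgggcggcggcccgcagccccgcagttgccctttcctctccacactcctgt
Espl1, chr15:102296173-102296322, plus strand: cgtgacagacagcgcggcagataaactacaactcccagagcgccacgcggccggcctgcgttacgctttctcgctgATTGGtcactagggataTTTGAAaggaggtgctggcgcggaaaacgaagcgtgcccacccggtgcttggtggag
Prc1, chr7:80294331-80294480, plus strand: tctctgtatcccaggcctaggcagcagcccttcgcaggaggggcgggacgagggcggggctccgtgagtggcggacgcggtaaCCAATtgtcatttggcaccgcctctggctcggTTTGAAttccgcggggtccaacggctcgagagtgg
Kpna2, chr11:106999496-106999645, minus strand: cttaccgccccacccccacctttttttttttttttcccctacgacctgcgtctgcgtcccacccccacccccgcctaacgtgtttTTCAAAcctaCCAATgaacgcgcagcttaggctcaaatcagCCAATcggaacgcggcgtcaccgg
Racgap1, chr15:99651627-99651776, minus strand: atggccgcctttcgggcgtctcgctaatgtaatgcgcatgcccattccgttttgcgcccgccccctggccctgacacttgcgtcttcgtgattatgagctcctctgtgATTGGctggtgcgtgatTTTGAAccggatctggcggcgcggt
Hmmr, chr11:40733408-40733557, minus strand: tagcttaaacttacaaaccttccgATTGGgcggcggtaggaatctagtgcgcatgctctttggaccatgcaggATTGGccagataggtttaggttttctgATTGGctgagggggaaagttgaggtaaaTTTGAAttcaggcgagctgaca
Next to them stand 3 APC/C subunits, also picked as examples. Anapc1 and Anapc4 hold neither motif in the window or in the full promoter, and Cdc27 holds CCAAT boxes without a CHR match. Anapc7, the only one of the 8 subunits with a CHR match, is not printed.
Anapc1, chr2:128687366-128687515, minus strand: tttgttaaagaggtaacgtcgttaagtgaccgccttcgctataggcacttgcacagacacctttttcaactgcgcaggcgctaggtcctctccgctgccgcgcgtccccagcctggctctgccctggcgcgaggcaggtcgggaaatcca
Anapc4, chr5:52834015-52834164, plus strand: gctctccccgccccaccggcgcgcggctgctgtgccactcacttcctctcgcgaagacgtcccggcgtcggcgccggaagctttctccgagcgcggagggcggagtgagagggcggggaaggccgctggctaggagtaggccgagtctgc
Cdc27, chr11:104550591-104550740, minus strand: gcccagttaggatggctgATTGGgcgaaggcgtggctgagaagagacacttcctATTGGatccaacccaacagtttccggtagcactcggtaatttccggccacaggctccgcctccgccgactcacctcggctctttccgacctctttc

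The CHR letters lay close to the start in the examples, at bases -18 to -13 in Cdc20, -29 to -24 in Ube2c and -27 to -22 in Espl1, where 1 is the first transcribed base and -1 the base before it. In Racgap1 they lay at bases 6 to 11, and in Hmmr at bases 9 to 14. Among the kinases, Plk1 held them at bases 31 to 36 and Aurka at bases 33 to 38. Several members that fell as far held no match in this promoter, among them Melk, Plk4, Tacc3, Nusap1 and Pttg1. Ckap2 and Ckap5, whose changes were small, held both motifs. Of 26 members with a promoter that fell at least 2-fold, 17 held a CHR match (65.4%) and 13 held both motifs (50%). These shares were no higher than those of all 32 members that are not APC/C subunits (68.8% and 53.1%).

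**Figure D1:**
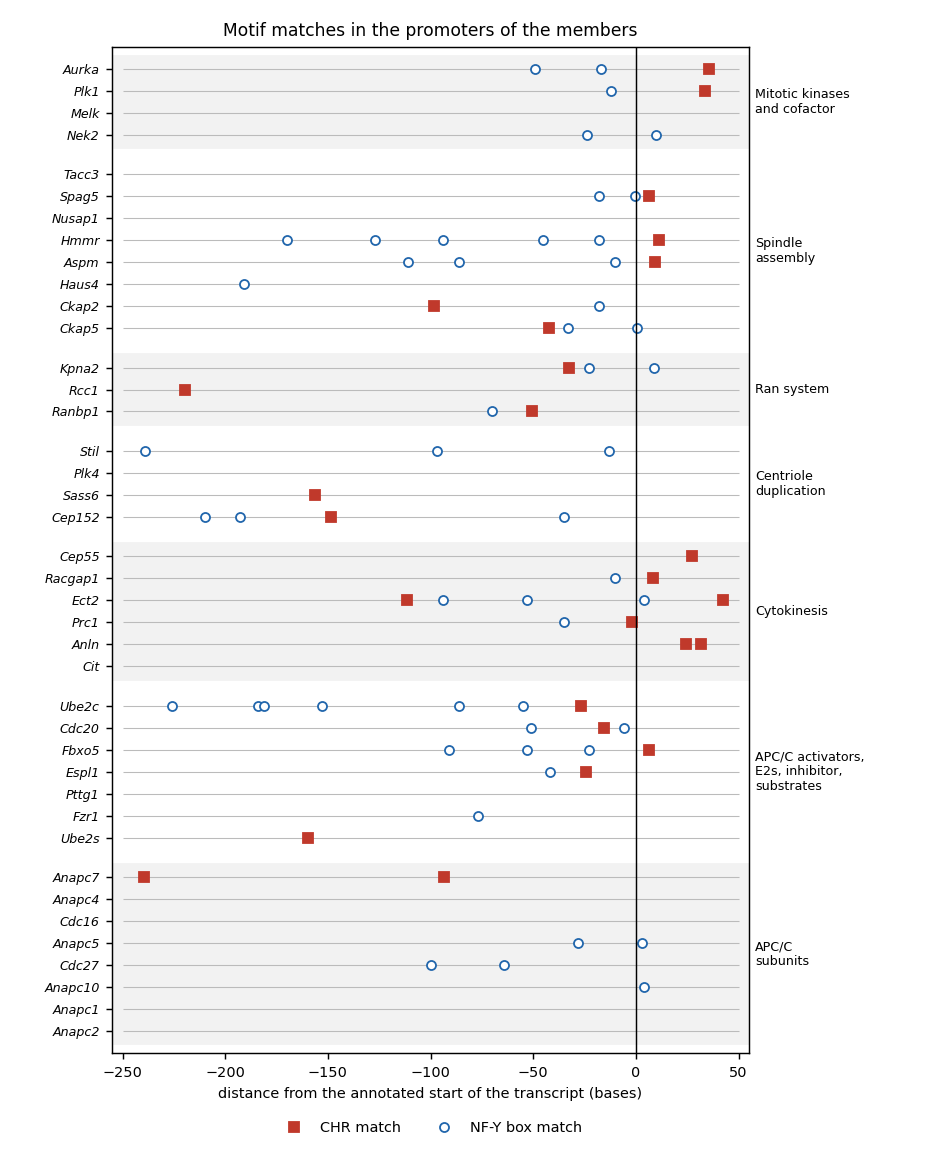
Distance from the annotated start of the transcript (bases, horizontal axis) of each CHR match (filled squares) and each CCAAT match (labelled NF-Y box, open circles) in the promoters of 40 members, grouped by role (vertical axis). Of 32 members that are not APC/C subunits, 22 hold a CHR match, and of 8 subunits 1 does (Anapc7).

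At day 7 after irr, every member outside the APC/C core was lower. All 35 passed the test (adjusted p under 0.05 from limma), with a median log2 fold change of -1.92, and 29 of them fell at least 2-fold. Cep152, in the count of 35 and in those of 38 below, had passed the filter only through its non-irr arrays. It could hardly have been called higher. Over all 44 members, 38 were called lower where 37.1% of all genes tested were, and 29 fell at least 2-fold where 6.16% of all genes did. Every irr array lay below every non-irr array for 38 members, against 35% of all genes. The median change of all genes tested was 0.01. Set among all genes tested, 14 members lay in the lowest 1% of changes, 27 in the lowest 5% and 30 in the lowest 10%, and none of these is an APC/C subunit. The list was chosen for mitosis with earlier results of these data known, so these counts describe it. In whole cultures, fewer cells with a transcript and less of it per cell cannot be told apart.

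**Figure D2:**
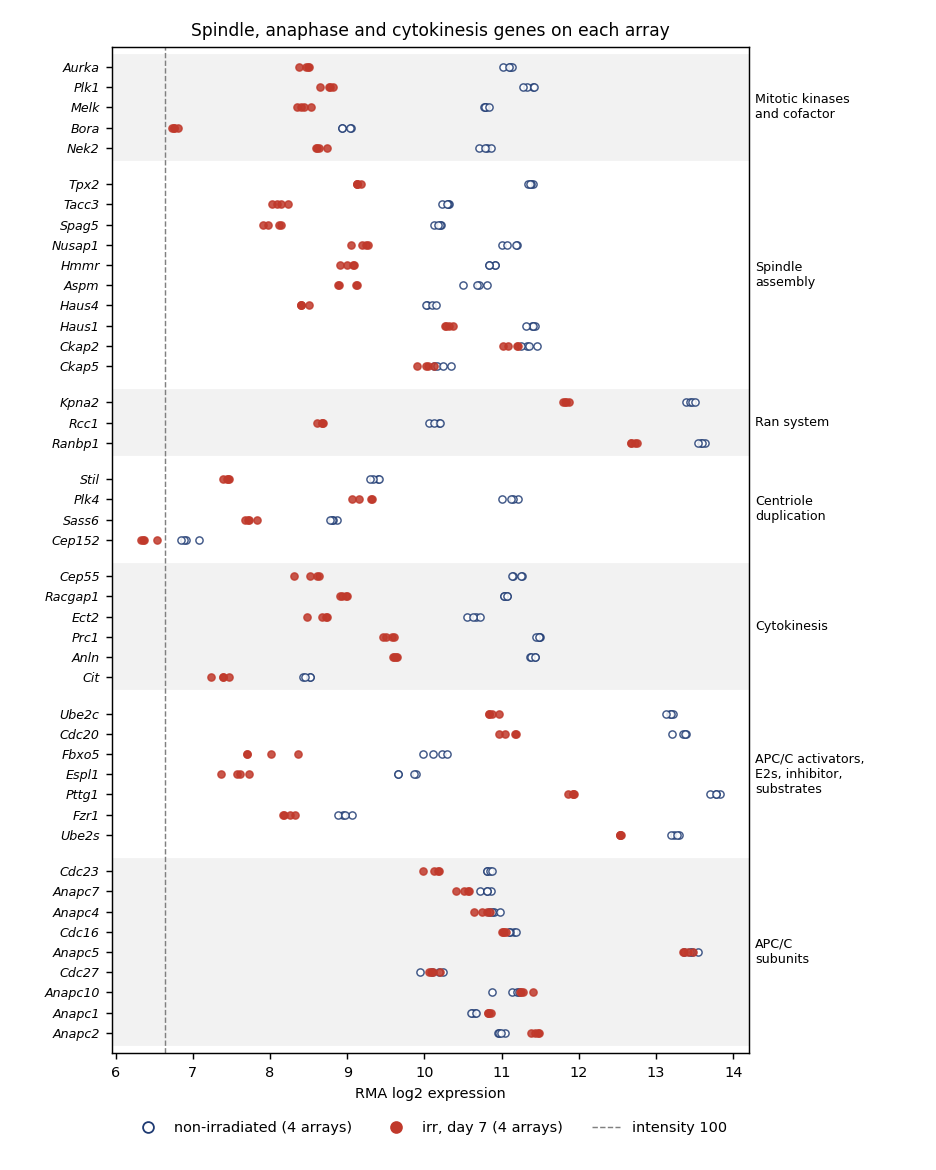
RMA log2 expression (horizontal axis) of the 44 genes on each array, with 4 non-irr arrays (open circles) and 4 irr arrays (filled circles) per gene, genes grouped by role and sorted by change. Every irr array lies to the left of every non-irr array for all 35 genes above the APC/C subunits, with the narrowest gap for Ckap5, and the dashed line marks an intensity of 100.

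The arrays of a group were alike, with correlations of 0.996 to 0.998 within groups and 0.972 to 0.976 between them. Of 10 NSC markers measured, all passed the filter, with Prom1 below it on every non-irr array. Sox2, Vim, Fabp7 and Slc1a3 were called higher, Pax6 (-0.54), Hes5 (-0.63) and Msi1 (-0.17) were called lower, and Nes, Olig2 and Prom1 were not called. Pluripotency genes were below the filter but for Esrrb, as were 5 of 6 microglial and 4 of 5 endothelial genes. The mean log2 level of 5 astrocyte markers was 8.24 to 8.34 on the non-irr and 9.65 to 9.71 on the irr arrays. Aqp4 made most of this shift (at least 26.1-fold higher), and Gja1, Aldh1l1 and S100b rose by 0.75, 0.83 and 0.19. Gfap lay close to the filter in both groups, at 6.64 to 6.90 without irr and 6.56 to 6.64 after it. Its measured level fell by 0.18, and its groups overlapped. The mean of 6 mesenchymal markers was 7.07 to 7.15 and 7.56 to 7.66, where Col3a1 (1.54), Lum and Dcn were higher, the last 2 from below the filter, Acta2 (-1.75) was lower, and Col1a1 and Pdgfrb stayed below the filter. The gap between the 3′ and 5′ control probe sets was wider after irr for actin (0.26 ± 0.03 and 0.51 ± 0.07, SD, n = 4 each, log2), the transferrin receptor (0.35 ± 0.21 and 0.85 ± 0.24) and pyruvate carboxylase (0.52 ± 0.11 and 1.06 ± 0.07), and not for Gapdh (-0.08 ± 0.04 and -0.06 ± 0.03). The part of these shifts in the results was not tested.

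Mitotic kinases. Plk1, the polo-like kinase that acts from mitotic entry to cytokinesis, read 11.40, 11.33, 11.27 and 11.41 on the non-irr arrays and 8.65, 8.77, 8.81 and 8.77 on the irr arrays. Aurka, the Aurora kinase of centrosomes and spindle poles, read 11.11, 11.02, 11.14 and 11.10 without irr and 8.49, 8.37, 8.50 and 8.46 after it. In both genes the groups lay more than 2 log2 units apart, far beyond the spread within them. Plk1 fell by 2.60 (SE 0.05, 6.08-fold, adjusted p = 4.3e-10 from limma) and Aurka fell by 2.64 (SE 0.05, 6.22-fold, adjusted p = 2.7e-10 from limma). Bora, the cofactor with which Aurora A activates Plk1, fell by 2.22 (SE 0.05), from 8.93 to 9.04 on the non-irr arrays to 6.74 to 6.80 on the irr arrays, near the filter. Melk, a kinase of dividing progenitors that also marks NSCs, fell by 2.37 (SE 0.05), and Nek2, which splits centrosomes at mitotic entry, fell by 2.14 (SE 0.05). Only 22 of 11364 genes fell further than Aurka, and 24 further than Plk1.

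Spindle assembly. All 10 spindle genes were called lower (37.1% of all genes tested were). Their median change was -1.76, and 8 of them passed 2-fold (6.16% of all genes were lower by as much). Tpx2, which activates Aurora A on spindle microtubules, fell by 2.23 (SE 0.04), and its arrays kept within 11.34 to 11.40 and 9.12 to 9.18. Tacc3, which binds spindle microtubules with Ckap5 and clathrin, fell by 2.16 (SE 0.05), and Spag5 (astrin), a protein of spindle poles and kinetochores, fell by 2.14 (SE 0.06). Nusap1, a bundler of microtubules near the chromosomes, fell by 1.93 (SE 0.07), and Hmmr, an adaptor of spindle poles, fell by 1.86 (SE 0.05). Aspm, the spindle pole protein whose loss in humans gives a small cerebral cortex, fell by 1.67 (SE 0.08), with 10.50, 10.81, 10.71 and 10.68 without irr and 9.13, 9.12, 8.88 and 8.90 after it. Of the subunits of augmin, the complex that starts new microtubules along old ones, Haus4 fell by 1.65 (SE 0.05) and Haus1 fell by 1.08 (SE 0.05).

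Ckap2 and Ckap5 stood apart from the other spindle genes in the size of their change. Ckap5 (chTOG), a microtubule polymerase that interphase cells use as well, read 10.13, 10.34, 10.16 and 10.24 without irr and 10.02, 10.12, 9.90 and 10.04 after it. Ckap2, a microtubule-stabilizing protein and APC/C substrate, read 11.33, 11.46, 11.25 and 11.35 without irr and 11.08, 11.20, 11.01 and 11.21 after it. The groups of both genes nearly touched. Ckap5 fell by 0.20 (95% confidence interval -0.34 to -0.05, adjusted p = 0.019 from limma), and Ckap2 fell by 0.22 (-0.36 to -0.08, adjusted p = 9.4e-03 from limma). With arrays centred on reference genes, neither was called (-0.08 and -0.10, adjusted p = 0.30 and 0.14), and Ckap5 was also not called without non-irr replicate 2 (-0.16, adjusted p = 0.055) or irr replicate 3 (-0.15, adjusted p = 0.052).

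Ran system. Kpna2, the importin that holds Tpx2 and releases it to Ran-GTP, fell by 1.62 (SE 0.04). Its arrays read 13.39, 13.44, 13.47 and 13.51 without irr and 11.88, 11.79, 11.83 and 11.82 after it. Rcc1, the chromatin-bound exchange factor that makes Ran-GTP, fell by 1.48 (SE 0.05), and Ranbp1, which helps to turn Ran-GTP over, fell by 0.88 (SE 0.04). All 3 were called lower (37.1% of all genes tested were), and 2 of them fell at least 2-fold (6.16% of all genes did).

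Centriole duplication. Plk4, the kinase that starts a new centriole, fell by 1.91 (SE 0.07), and Stil, its partner at the site of assembly, fell by 1.92 (SE 0.05). Sass6, which builds the cartwheel of the new centriole, fell by 1.07 (SE 0.05). Cep152, which recruits Plk4 to the older centriole, read 7.07, 6.91, 6.88 and 6.85 without irr and 6.35, 6.36, 6.33 and 6.53 after it. All 4 irr arrays of Cep152 lay below an intensity of 100, and it was at least 1.22-fold lower. Its measured level fell by 0.53 (SE 0.07). It was called lower, but it had passed the filter only through its non-irr arrays and could hardly differ in the other direction.

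Cytokinesis. Cep55, which brings the membrane-cutting machinery to the midbody, read 11.14, 11.26, 11.13 and 11.24 without irr and 8.61, 8.63, 8.32 and 8.52 after it. With the largest decrease of the 44 genes, it fell by 2.68 (SE 0.07, 6.39-fold, adjusted p = 1.6e-09 from limma), and 19 of all genes tested fell further. Racgap1, a subunit of the centralspindlin complex, fell by 2.09 (SE 0.04). Ect2, the exchange factor that activates RhoA at the equator, fell by 1.99 (SE 0.07). Prc1, which bundles the central spindle, fell by 1.94 (SE 0.05), and Anln (anillin), the scaffold of the contractile ring, fell by 1.79 (SE 0.04). Cit, the citron kinase of the midbody, fell by 1.10 (SE 0.06) by its brightest probe set, and its other tested probe sets fell by 0.97 and 0.20. All 6 genes were lower at least 2-fold by their brightest probe sets (6.16% of all genes tested were).

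**Figure D3:**
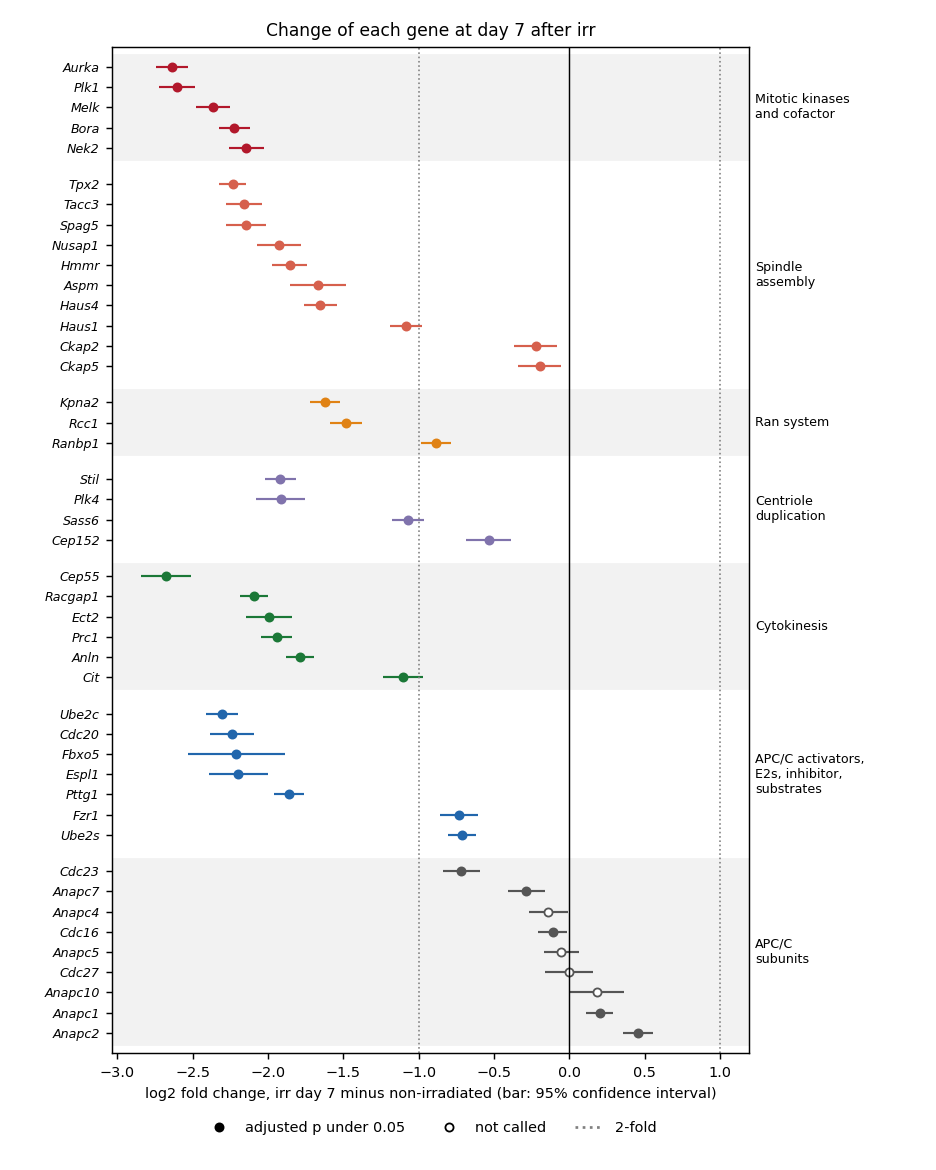
Log2 fold change (irr day 7 minus non-irr, horizontal axis) of each of the 44 genes with its 95% confidence interval from limma, n = 4 arrays per group, grouped by role. Filled points are called at an adjusted p under 0.05 and open points are not. Outside the APC/C subunits every point lies below 0, and the subunits spread from -0.72 (Cdc23) to 0.45 (Anapc2).

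As a list, the APC/C core changed less than the 7 genes around it. Of its 9 subunits, 3 were called lower (37.1% of all genes tested were), 2 were called higher (40.2% of all genes were) and 4 were not called, none changed 2-fold, and their median was -0.05, or 0.07 with arrays centred on reference genes. All 7 genes around it (activators, ubiquitin-conjugating enzymes, inhibitor, the substrate Pttg1 and separase, Espl1) were lower. Their median change was -2.20, and 5 of them passed 2-fold (6.16% of all genes were lower by as much). The mean change of the 7 genes was -1.69 to -1.81 on the 4 irr arrays, and that of the 9 subunits was -0.08 to -0.02. Single genes of the lists overlapped, since the activator Fzr1 (-0.73) and the enzyme Ube2s (-0.71) fell about as far as the subunit Cdc23 (-0.72). Ckap2, an APC/C substrate counted with the spindle genes, fell by only 0.22. The difference between the lists was not tested, since the genes of a list are not replicates.

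Among the activators, Cdc20, which starts anaphase, read 13.34, 13.39, 13.21 and 13.37 without irr and 11.17, 10.96, 11.04 and 11.19 after it. Fzr1 (Cdh1), the activator of late mitosis and G1, read 9.06, 8.95, 8.87 and 8.97 without irr and 8.18, 8.17, 8.26 and 8.32 after it. The groups of both genes lay apart, with the wider gap in Cdc20. Cdc20 fell by 2.24 (95% confidence interval -2.39 to -2.09) and Fzr1 fell by 0.73 (-0.86 to -0.61, adjusted p = 1.3e-06 from limma), and these intervals do not overlap. The enzymes that supply ubiquitin differed likewise. Ube2c, which starts the ubiquitin chain, read 13.22, 13.19, 13.19 and 13.13 without irr and 10.83, 10.87, 10.97 and 10.83 after it, and fell by 2.31 (-2.41 to -2.20). Ube2s, which extends the chain, read 13.23, 13.29, 13.20 and 13.27 without irr and 12.54, 12.53, 12.55 and 12.53 after it, and fell by 0.71 (-0.80 to -0.62).

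Fbxo5 (Emi1), the inhibitor of APC/C in S and G2 phase, had the widest spread of all members after irr. It read 10.23, 10.29, 10.11 and 9.98 without irr and 8.37, 8.01, 7.70 and 7.70 after it, and fell by 2.21 (SE 0.14, adjusted p = 4.0e-07 from limma). Irr replicate 1 was the highest of the irr arrays and still lay below the lowest non-irr array. Pttg1 encodes securin, the substrate whose loss frees separase, and Espl1 encodes separase. Pttg1 fell by 1.86 (SE 0.04) by its brightest probe set, and another probe set fell by 2.48. Its last tested probe set lay below the filter on all irr arrays and was at least 1.75-fold lower. Espl1 fell by 2.20 (SE 0.09), from 9.88, 9.66, 9.65 and 9.86 to 7.57, 7.36, 7.61 and 7.73.

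Among the core subunits, Cdc23, of the arm of tetratricopeptide repeats that binds the activators, read 10.81, 10.81, 10.85 and 10.87 without irr and 9.98, 10.13, 10.19 and 10.18 after it. Anapc2, the cullin subunit of the catalytic centre, read 11.05, 10.95, 10.97 and 10.99 without irr and 11.39, 11.43, 11.47 and 11.48 after it. The groups lay apart in opposite directions. Cdc23 fell by 0.72 (SE 0.06, adjusted p = 1.5e-06 from limma), and Anapc2 rose by 0.45 (SE 0.04, adjusted p = 8.1e-06 from limma). Anapc7, of the same arm as Cdc23, fell by 0.28 (SE 0.05), and the scaffold subunit Anapc1 rose by 0.20 by its brightest probe set (SE 0.04, adjusted p = 1.1e-03 from limma). The direction of Anapc1 turned with the probe set, since one that was as bright on the non-irr arrays fell by 0.82. The choice by the mean over all arrays took the probe set that rose. Cdc16, also of the arm, was called lower by 0.11 (SE 0.04, adjusted p = 0.037 from limma), a call that ended with no intensity filter, with arrays centred on reference genes (0.01) and without any 1 of several arrays (adjusted p = 0.10 without non-irr replicate 2).

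The other 4 subunits were not called by their brightest probe sets. Anapc4, a scaffold subunit, had a change of -0.14 (95% confidence interval -0.27 to -0.01, adjusted p = 0.051 from limma). Anapc10, which helps to hold the substrate, had 0.18 (0.01 to 0.36, adjusted p = 0.057). Anapc5, of the scaffold, had -0.05 (-0.17 to 0.07), and Cdc27, of the arm, had log2 values of 9.94, 10.25, 10.19 and 10.09 without irr and 10.09, 10.20, 10.06 and 10.11 after it. These intervals leave no room for a 2-fold change by these probe sets. Anapc4 and Anapc10 were called under several of the other settings (-0.14 at adjusted p = 0.034 and 0.18 at adjusted p = 0.036 with trend and robust settings in limma).

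Other probe sets of the same genes were read as well. The members were read by 101 probe sets, of which 83 passed the filter. Of 61 tested probe sets of the 35 other members, 10 lay below the filter on every irr array and had passed only through the non-irr arrays, so that they could hardly differ in the other direction. The remaining 51 were all called lower, from -2.68 to -0.20. Of 22 tested probe sets of the subunits, 9 were called lower, 5 were called higher and 8 were not called, where 37.1% of all probe sets tested were lower and 38% were higher. For Anapc1 the 4 tested probe sets ran from -0.82 to 0.20, and the lowest and highest of these, with non-irr means of 10.66 and 10.64, were called in opposite directions. For Cdc27 the brightest read -0.00 and the other 2 fell by 0.63 and 0.71. For Anapc5, 1 of 6 probe sets fell by 0.80, another rose by 0.16 and 4 were not called. The other tested probe set of Anapc4 was called lower (-0.22, adjusted p = 1.8e-03 from limma). That of Anapc10 was called higher (0.28, adjusted p = 5.0e-03 from limma). With the mean of all tested probe sets in place of the brightest, 6 subunits were called lower and Anapc1 read -0.10 (adjusted p = 0.072 from limma).

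**Figure D4:**
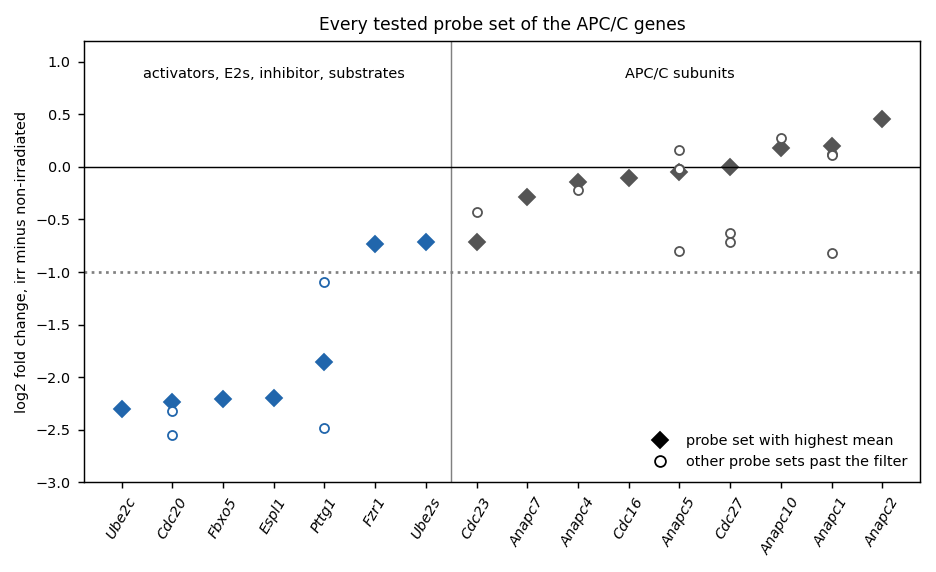
Log2 fold change (irr day 7 minus non-irr, vertical axis) of each probe set past the filter, for the 7 genes around APC/C (left) and its 9 subunits (right). Diamonds are the probe sets with the highest mean, used in the text, and open circles the others. The probe sets at the left lie below -0.70, among them 1 of Pttg1 whose irr arrays are all below the filter, while probe sets of Anapc1 run from -0.82 to 0.20.

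Other genes of the same processes, from lists of textbook members, moved less uniformly. Of 101 listed, 99 were found and 98 passed the filter, with a median of -0.40. Of the 98, 60 were called lower (37.1% of all genes were) and 34 of these at least 2-fold (6.16% of all genes). Another 22 were called higher (40.2% of all genes) and 16 were not called. By measured level, 3 were higher at least 2-fold (8.88% of all genes), named here after their values were seen. They were the kinase Nek7 (1.37), the spindle protein Psrc1 (1.24) and the microtubule end binder Mapre3. The non-irr arrays of Mapre3 lay below the filter, so its rise is shown only to be at least 1.32-fold. Each of the 9 other APC/C substrates measured fell by 2-fold or more (median -2.26), and cyclin B2 (Ccnb2, -2.69) and the thymidine kinase Tk1 (-2.62) changed most. Of 5 further small subunits of APC/C, 3 were called lower, the largest decreases being those of Anapc15 (-1.31, SE 0.07), which helps to release the checkpoint complex, and Cdc26 (-0.57, SE 0.06), and Anapc13 (-0.06) and Anapc16 (-0.05) were not called. Anapc15 is the only one of all 14 subunits measured with a change of at least 2-fold.

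Beside each count that follows, 37.1% of all genes tested were called lower and 40.2% higher. Of 12 other mitotic kinases, 8 were lower and 4 higher. Haspin, the kinase of histone H3 at centromeres (-2.53), and Cdk1, the kinase of mitotic entry (-1.87), changed most. Among 15 other spindle and microtubule proteins, 7 were lower, 5 were higher and 3 were not called, the last being Numa1, Gtse1 and Mapre1, while Knstrn (-2.31) and Dlgap5 (-1.87), both of spindle and kinetochore microtubules, changed most. The other augmin subunits were divided, since Haus5 (-1.59) and Haus6 (-1.28) fell most and Haus2 (-0.03, adjusted p = 0.64 from limma) and Haus3 (-0.10, adjusted p = 0.57 from limma) were not called. With them on that list of 15 stood the genes of the γ-tubulin ring, and in all 9 were lower and 2 were higher, and Tubgcp2 and Tubgcp6 were not called either.

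In the Ran system, 6 of 10 further genes were lower and 2 were higher (37.1% and 40.2% of all genes tested were). Rangap1, the activator of Ran's GTPase, fell by 1.13 (SE 0.05) while the nuclear pore protein Ranbp2 rose by 0.75 (SE 0.11). Kpna1 and Kpna6, importins of the same family as Kpna2, were not called. Of 12 other centriole and centrosome genes tested, 9 were lower and 2 were higher (against the same 37.1% and 40.2%), none by 2-fold. Cep192 (-0.75), a scaffold of Plk4, and Cenpj (-0.71), which sets centriole length, changed most, and Cetn3 was not called.

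Of 20 other genes of cytokinesis and abscission, 9 were lower, each at least 2-fold, 7 were higher and 4 were not called, with a median of -0.01. Over all genes tested, 37.1% were lower, 6.16% were lower at least 2-fold and 40.2% were higher. Cdca8 (-2.53) and Birc5 (-2.36), of the chromosomal passenger complex, fell most. Rhoa, the GTPase that Ect2 activates, was not called (0.12, adjusted p = 0.093 from limma), nor were Tsg101, Vps4a and Septin2, which act in membrane traffic or the septin cytoskeleton of non-dividing cells as well.

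**Figure D5:**
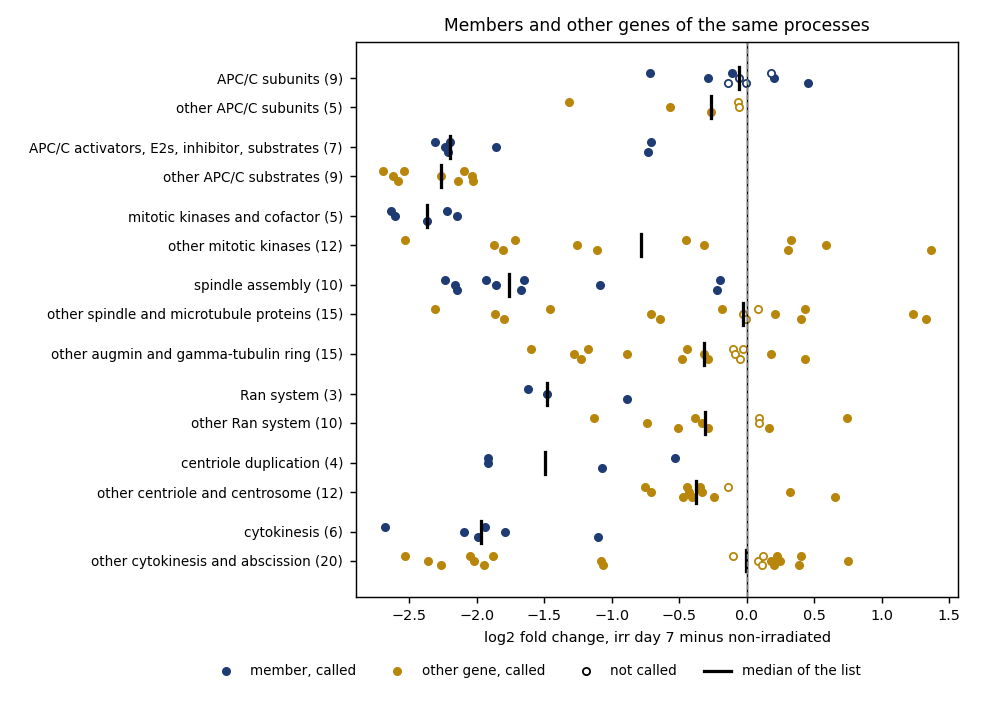
Log2 fold change (irr day 7 minus non-irr, horizontal axis) of members (blue) and of other genes of the same processes (gold), 1 point per gene and 1 line per list with the number of genes tested, where the black bar is the median of the list and open points are not called. The medians run from -2.37 for the mitotic kinases and their cofactor among the members to -0.01 for the other genes of cytokinesis and abscission, and the dashed line at 0.01 is the median of all genes tested.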

How the data were processed

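RNA of 4 non-irr and 4 irr (10 Gy, day 7) NSC cultures was measured on 1 Affymetrix array each. Intensities and detection calls came from GCOS, and the authors deposited RMA values (background correction, quantile normalization, probe set summary) on the log2 scale. Quantile normalization makes the distributions of the arrays nearly equal (medians 6.22 to 6.24), so changes are relative to the other transcripts. Detection calls were not used here. Of 45101 probe sets, 64 are controls and 34958 carry 1 gene symbol of the platform's annotation, matched to the RefSeq symbol by Entrez number for 34754. Probe sets over an intensity of 100 on at least 1 array were kept, 21919 in all.

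Groups were compared with limma 3.58.1 in R 4.3.3 (two-sided, Benjamini-Hochberg over all probe sets kept), called at an adjusted p under 0.05, with a 2-fold threshold where stated. The series calls the arrays biological quadruplicates without saying what separated the cultures, so p-values measure the spread between these arrays, whose number limits precision. The procedure was tested on simulated data. Members, roles and lists were chosen with earlier results of these data known. Genes named are all members and, of each other list, the 2 called with the largest change and those not called. Ccnb1 and Nutf2 were not analysed here. Alternatives were other filters, scalings, limma settings, probe set choices, a replicate block, and each array left out. RefSeq promoters were searched for motifs by letter.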

Additional observations from a re-analysis of the deposited data

Results flagged for a closer look

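In 3 of 88 groups of 4 arrays (44 genes in 2 groups), 1 array lay far from the other 3 by the ratio of its gap to the range, which chance gives in about 1 of 20 groups. These were Haus4 on irr replicate 3, at 8.50 where the others read 8.40, Cep152 on irr replicate 4, at 6.53 where the others read 6.33 to 6.36 and all lie below an intensity of 100, and Pttg1 on irr replicate 2, at 11.86 where the others read 11.92 to 11.93. In each gene, the irr and non-irr arrays did not overlap.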

How the results depend on the processing

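Over all alternatives, 861 values of single members kept their direction and side of the threshold, 24 lost and 17 gained a call, and 13 changed sign, each of these of Anapc1, Anapc5, Cdc16 or Cdc27. With no intensity filter 37 members were called lower. Centring on the mean of 8 reference genes, 6 of which changed themselves, shifted the median over all probe sets by 0.12 and the share of higher ones among calls from 50.6% to 62.6%. On that scale the median of the subunits was 0.069 and that of the other members -1.797, 35 members were called lower and 3 higher, and Anapc5 (0.069), Cdc16 (0.012) and Cdc27 (0.119) turned positive. Cdc27 read 0.001 with arrays centred on their median and 0.017 with array weights. Tested against a 1.5-fold change, 4783 probe sets were called, and 31 members and 0 subunits were called lower. With the mean of all probe sets (8859 genes called), 6 subunits were called lower, with a median of -0.126, and Anapc1 read -0.096. With plain identifiers, which leave out probe sets marked as matching several transcripts, 36 members could be tested, 32 were lower, the medians were -0.003 and -1.702, Anapc1 read -0.823 and Anapc5 0.159. Without irr replicates 3 and 4, an alternative chosen after seeing the data since the second principal component (3.68% of variance) sets them apart, the median of the subunits was -0.098, Cdc27 read 0.029, and 36 members were lower, 29 at least 2-fold. Leaving out each array in turn gave 36 to 38 members lower, 29 at least 2-fold in every case, 2 to 3 subunits lower, medians of -0.081 to -0.035 and -1.948 to -1.882, and -0.062 to 0.041 for Cdc27. Whether the replicate numbers pair the arrays was not settled by the correlations of same-numbered deviations (0.04, 0.38, -0.21 and 0.51). By that measure, 4 of 8 arrays correlate best with their own number. With a replicate block, 37 members and 2 subunits were called lower, Cdc16 was lost (adjusted p = 0.062) and Anapc10 gained (adjusted p = 0.033). The cause of these shifts was not tested. Signal near the filter limits Cep152 to a lower bound.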
